A study of Mus musculus with 18 samples.

Results

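Cxcl9, Cxcl10, Cxcl11, Cxcl16, Ccl5, Cxcr3, Cxcr6, Cxcl12 and Cxcr4 are chemokine and chemokine receptor genes that guide T cells and other lymphocytes. They were taken by name as a list of 9 mouse genes out of 48795 in the deposited table, and each is described in all 6 groups of the study. Messenger RNA was sequenced from GL261 GFP cells, a mouse glioma line labelled with green fluorescent protein, and from the tumours that these cells formed in 2 kinds of C57BL/6 mice. The question followed here is which cells held the RNA of the ligands and receptors, and how the levels differed with the host.

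The WT hosts have a working immune system. In Pfp/Rag2-/- hosts the loss of Rag2 leaves no mature T or B cells. Natural killer (NK) cells are still made there, but they lack perforin, with which killer cells open holes in their targets. Tumours were taken from symptomatic mice, 6 of each host, and digested with collagenase. Sorting by fluorescence gave GFP+ tumour cells from both hosts and GFP- cells from WT tumours, and unsorted cells were kept from both hosts. Cultured GFP+ cells, the ones injected, formed the sixth group. No GFP- group from Pfp/Rag2-/- hosts was analysed here. Every group had 3 libraries. Whether each library came from a single mouse or a pool is not stated, so the p-values describe the spread among libraries, which may be technical. Levels are normalized counts, that is, reads divided by a size factor of the library, and are given for libraries 1, 2 and 3 in that order. In bulk RNA, fewer cells of a type and less RNA per cell cannot be told apart.

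Cxcl9, Cxcl10 and Cxcl11 are secreted chemokines that bind the receptor CXCR3 on activated T cells and NK cells, and they are classic targets of interferon-gamma, the cytokine those same cells release. Cxcl16 encodes a membrane-bound chemokine, shed by the proteases Adam10 and Adam17, whose receptor is CXCR6. Ccl5 is made by activated lymphocytes and myeloid cells and attracts T cells and monocytes. Cxcl12 is a chemokine of stromal and endothelial cells that acts through Cxcr4, and Ackr3 scavenges it.

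Libraries held 19172814 to 21141662 reads. In the sorted GFP+ fraction, library 1 of each host stood apart in NK cell markers. Summed over 10 NK cell markers, the normalized count was 2962 in Pfp/Rag2-/- GFP+ library 1 against 92.8 and 54.3 in the other 2, and 2106 in WT GFP+ library 1 against 284 and 424. Summed over 20 macrophage and microglia markers, it was 16113, 7149 and 7227 in the Pfp/Rag2-/- GFP+ libraries and 17221, 6929 and 14286 in the WT GFP+ libraries. In cultured cells the macrophage sums were 176 to 182, with 9 to 10 of the 20 markers at 0, among them Aif1, Itgam, C1qb and Tyrobp in every library. In percent of their GFP- mean, library 3 stood apart among the WT GFP+ libraries in other markers. The median endothelial marker was at 4.72%, 8.92% and 30.1% in WT GFP+ libraries 1, 2 and 3. The median pericyte and fibroblast marker was at 3.53%, 3.24% and 21.1%, and the median of 2 oligodendrocyte markers at 8.57%, 3.69% and 83.3%. In the Pfp/Rag2-/- GFP+ libraries these medians were 29.4% to 65.3%, 20.5% to 58.9% and 34.9% to 65.1%. Calls of the 9 genes, and the list counts reported for the sorted host comparison, are therefore given with and without library 1 where its removal changed them. Prf1, the perforin gene, had 118, 110 and 160 reads in unsorted WT and 8, 15 and 18 in unsorted Pfp/Rag2-/- tumours, but 123, 5 and 11 in WT GFP+ against 128, 6 and 1 in Pfp/Rag2-/- GFP+ libraries. Rag2 had reads in unsorted Pfp/Rag2-/- tumours (5, 7 and 4) and 0 in every WT-host library. Which part of either gene is deleted is not given in the sources used here, so these reads do not check the host labels.

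Cxcl10 was abundant in every group, including the cultured tumour cells, and its level in tumour cells differed between hosts. In cultured cells its normalized counts were 3369, 3140.0 and 3194. GFP+ cells from Pfp/Rag2-/- hosts held 1282, 933 and 1168, and GFP+ cells from WT hosts held 8707, 9151 and 3204. The Pfp/Rag2-/- libraries thus all lay below the cultured ones, while 2 of the 3 WT libraries lay far above them and WT library 3 lay within their range. Among WT GFP+ libraries that library was also the one high in endothelial, pericyte and oligodendrocyte markers. The Pfp/Rag2-/- GFP+ libraries were high in these markers as well, with medians of 20.5% to 65.3% of the GFP- mean. The part of such cells in the Cxcl10 levels was not tested. Unsorted Pfp/Rag2-/- tumours held 955, 898 and 975, unsorted WT tumours 2934, 4009.8 and 2983, and GFP- cells 8883, 8741 and 5255. Ranked by mean, the order was GFP- cells, WT GFP+ cells, unsorted WT tumours, cultured cells, Pfp/Rag2-/- GFP+ cells and unsorted Pfp/Rag2-/- tumours. The ranges of all neighbours in this order overlapped except for cultured cells and Pfp/Rag2-/- GFP+ cells. By mean, unsorted WT tumours (3309) lay below both sorted fractions of that host, GFP+ cells (7021) and GFP- cells (7626). Cxcl10 levels in sorted cells may therefore not be those in the unsorted tumour, and the cause was not tested.

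Cxcl9 was almost absent from cultured cells and from both Pfp/Rag2-/- groups. Its normalized counts were 4.72, 5.66 and 4.77 in culture. Pfp/Rag2-/- GFP+ cells held 26.5, 2.76 and 4.61, and unsorted Pfp/Rag2-/- tumours 8.0, 5.44 and 7.21. These 3 groups overlapped. WT GFP+ cells held 144, 113 and 155, unsorted WT tumours 454, 1051 and 792, and GFP- cells 4578, 8233 and 6254. The levels of these 3 groups stood in that order without overlap, and all lay above the other groups.

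Cxcl11 did not exceed a normalized count of 322 in any library. C57BL/6 mice carry a frameshift in it, and GENCODE lists it as a polymorphic pseudogene, so its RNA is read here as a transcript and not as a chemokine. It stood at 3.78, 4.71 and 1.91 in culture. Pfp/Rag2-/- GFP+ cells held 23.7, 11.9 and 17.5, and unsorted Pfp/Rag2-/- tumours 12.4, 9.06 and 9.92. WT GFP+ cells held 98.6, 104 and 68.1, unsorted WT tumours 87.6, 112 and 99.3, and GFP- cells 278, 322 and 199.8. The WT GFP+ and unsorted WT ranges overlapped, and the GFP- libraries lay above both.

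**Figure D1:**
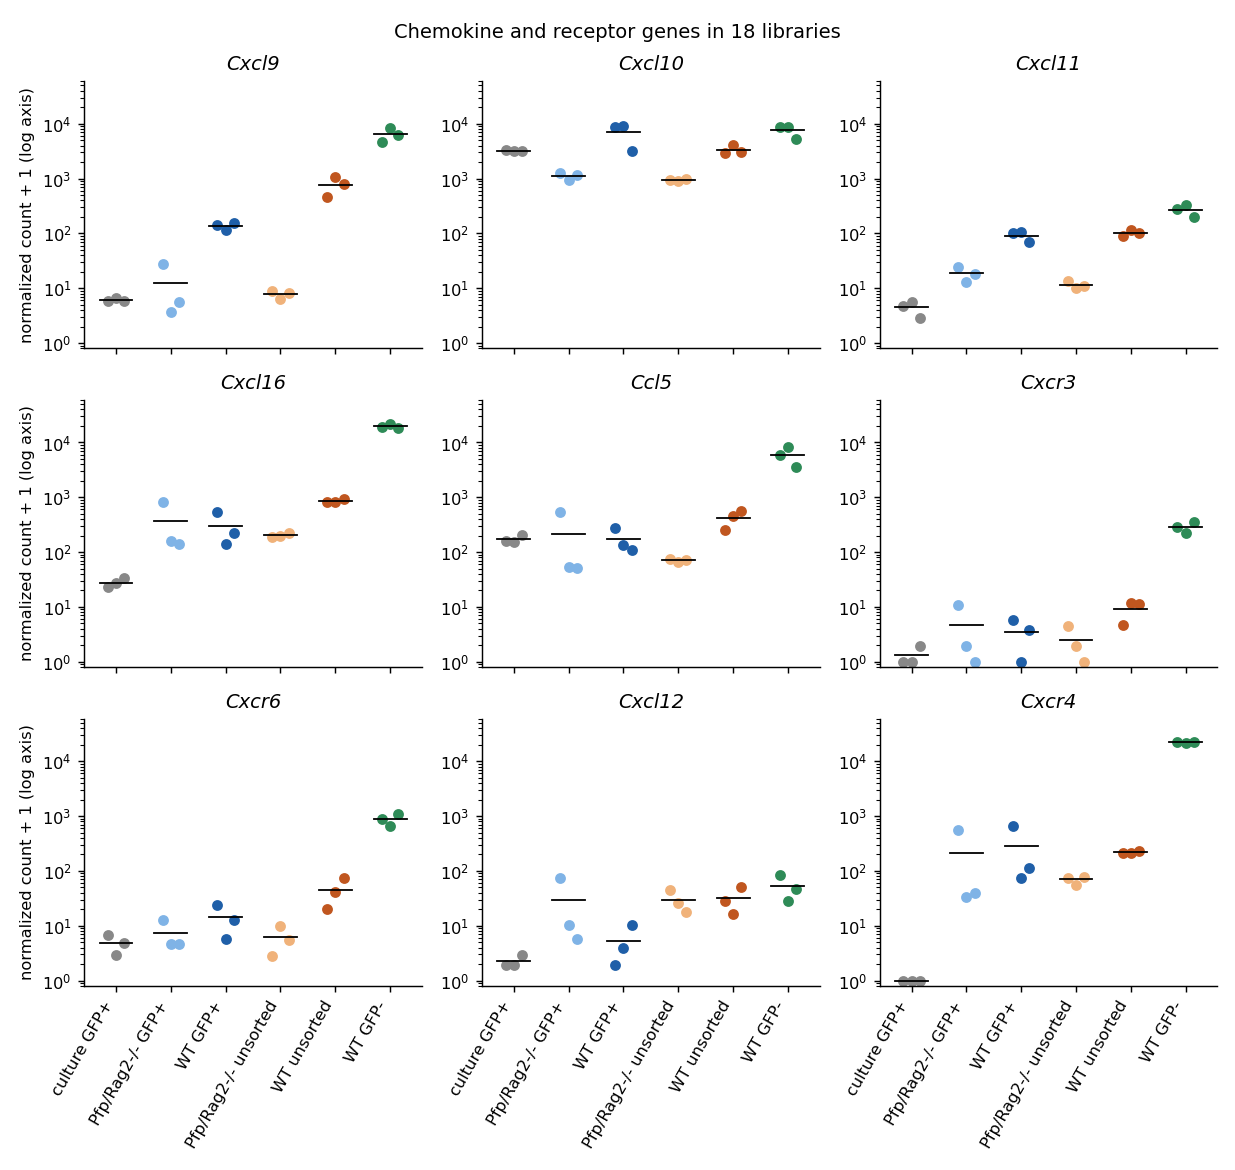
Normalized count plus 1 of the 9 genes in each of the 18 libraries, on a log axis, by group; points are libraries and bars are group means. Cxcl10 lay between 898 and 9151 in every library, whereas the other ligands and the receptors were far higher in GFP- cells than in cultured cells.

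The 3 genes lie side by side on the minus strand of chromosome 5 (GRCm38). Cxcl9 spans 92321347 to 92328079, Cxcl10 spans 92346638 to 92348889 and Cxcl11 spans 92359544 to 92365485. The sequence just before the start is shown for Cxcl10 and Cxcl9, whose levels in culture were far apart. Both are 250 bases before the start in the RefSeq promoter table of GRCm38.p6, on the minus strand at chr5:92348890-92349139 for Cxcl10 and chr5:92328080-92328329 for Cxcl9. Capitals mark matches to an interferon-stimulated response element (ISRE), searched as GAAA, any 2 bases and GAAA, to an interferon-gamma activated site (GAS), searched as TTCNNNGAA, or to the NF-kB motif, on both strands.
Cxcl10: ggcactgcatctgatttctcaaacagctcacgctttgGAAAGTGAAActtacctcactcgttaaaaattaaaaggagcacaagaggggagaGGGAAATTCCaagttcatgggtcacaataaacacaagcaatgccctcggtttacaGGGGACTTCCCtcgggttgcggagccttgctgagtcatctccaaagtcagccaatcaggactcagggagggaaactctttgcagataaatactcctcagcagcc
Cxcl9: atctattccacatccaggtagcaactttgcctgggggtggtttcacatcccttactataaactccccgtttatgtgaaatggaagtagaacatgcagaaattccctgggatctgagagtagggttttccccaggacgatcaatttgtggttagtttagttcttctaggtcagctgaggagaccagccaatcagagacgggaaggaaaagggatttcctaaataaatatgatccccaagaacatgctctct

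The Cxcl10 window held 4 matches. The ISRE lay 213 to 204 bases before the start, and NF-kB matches lay 159 to 150 bases before it and, as an overlapping pair, at 104 to 95 and 103 to 94. The Cxcl9 window held none of the searched letters. Of 32851 promoter windows of this length, 2.98% held the ISRE, 7.02% the GAS and 5.93% the NF-kB motif. A promoter entry was found for 6 of the 9 genes. A match is a run of letters and not a measured binding site.

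Because Cxcl9, Cxcl10 and Cxcl11 differ in exon length, their mix was compared per kilobase of exon. In cultured cells Cxcl10 made up 99.8% ± 0.0390 (SD, n = 3) of the summed level of the 3 RNAs. Its share was 98.4% ± 0.874 in Pfp/Rag2-/- GFP+ cells, 97.3% ± 1.69 in WT GFP+ cells and 98.8% ± 0.174 in unsorted Pfp/Rag2-/- tumours. It was 84.3% ± 3.44 in unsorted WT tumours and 60.5% ± 9.72 in GFP- cells, where Cxcl9 made up 38.2% ± 9.79. Per kilobase, Cxcl10 was at 3117 ± 1471 in WT GFP+ cells and 3387 ± 912 in GFP- cells, while Cxcl9 was at 45.5 ± 7.15 and 2107 ± 607. By this measure tumour cells of either host held almost only Cxcl10 RNA, and the GFP- fraction held a Cxcl10 and Cxcl9 mix. These shares are a description and were not tested.

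**Figure D2:**
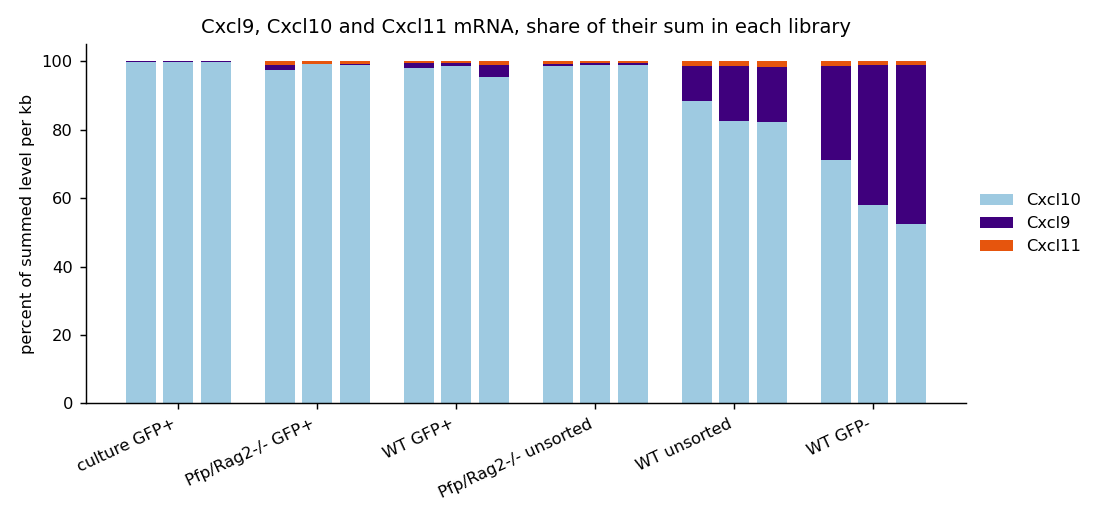
Share of Cxcl10, Cxcl9 and Cxcl11 in their summed level per kilobase of exon, in percent, with 1 stacked bar per library and 3 bars per group. Cxcl10 took at least 95.4% in the 12 libraries of culture, GFP+ cells and unsorted Pfp/Rag2-/- tumours, and 52.3% to 71.3% in GFP- cells.

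Ccl5, which recruits T cells, was carried mostly by GFP- cells. Its normalized counts were 162, 149.9 and 204 in culture. WT GFP+ cells held 273, 131 and 111, and Pfp/Rag2-/- GFP+ cells 537, 53.3 and 50.7. In both tumour-derived GFP+ groups library 1 was the highest, the same library that was high in NK cell markers, whose part in this level was not tested. Unsorted Pfp/Rag2-/- tumours held 74.6, 66.1 and 69.4, unsorted WT tumours 256, 459 and 556, and GFP- cells 5876, 8339 and 3537. Cultured cells lay above every unsorted Pfp/Rag2-/- library.

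Cxcl16, the membrane-bound CXCR6 ligand, had normalized counts of 21.7, 26.4 and 32.4 in culture. Pfp/Rag2-/- GFP+ cells held 829, 157 and 139, WT GFP+ cells 532, 139 and 224, and unsorted Pfp/Rag2-/- tumours 188, 198 and 223. Unsorted WT tumours held 824, 837 and 938, and GFP- cells 19130.4, 21337 and 18728. GFP- cells were thus far above all other groups, and library 1 was again the highest in both GFP+ groups. The gene lies on chromosome 11 at 70453983 to 70459984 and shares 552 exon bases, 18.3% of its own, with Zmynd15 on the opposite strand. Whether the counting used strand is not given in the sources used here, so reads in the shared bases cannot be assigned.

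Cxcl12, the stromal ligand of Cxcr4, was low throughout. It reached 82.4, 27.7 and 46.0 in GFP- cells, 43.5, 24.5 and 17.1 in unsorted Pfp/Rag2-/- tumours, and 26.8, 15.3 and 49.6 in unsorted WT tumours. Pfp/Rag2-/- GFP+ cells held 73.1, 9.18 and 4.61, WT GFP+ cells 0.958, 2.85 and 9.21, and cultured cells 0.945, 0.943 and 1.91. The tumour cells in culture and in WT hosts were at 10 reads or fewer in each library. Endothelial markers, as a median over 10 markers in percent of the GFP- mean, were at 14.6% ± 13.6 in WT GFP+ cells, and Pfp/Rag2-/- GFP+ libraries had 42.5% ± 19.9. Cxcl12 itself was at 8.34% ± 8.30 and 55.6% ± 73.5 of its GFP- mean in these groups, and the part of endothelial RNA in this was not tested.

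The receptors were found mainly in the GFP- fraction. Cxcr3, the receptor of Cxcl9, Cxcl10 and Cxcl11, had normalized counts of 283, 225 and 348 in GFP- cells. It had 0, 0 and 1 reads in culture, 11, 1 and 0 in Pfp/Rag2-/- GFP+ cells, 5, 0 and 3 in WT GFP+ cells, 4, 1 and 0 in unsorted Pfp/Rag2-/- tumours and 4, 12 and 12 in unsorted WT tumours. Outside the GFP- fraction no library thus held more than 12 reads, so the precision there is set by counting. Cxcr6, the Cxcl16 receptor of effector and resident T cells, stood at 868, 670.1 and 1085 in GFP- cells. It had 6, 2 and 4 reads in culture, 13, 4 and 4 in Pfp/Rag2-/- GFP+ cells, 24, 5 and 13 in WT GFP+ cells, 2, 10 and 5 in unsorted Pfp/Rag2-/- tumours and 21, 45 and 84 in unsorted WT tumours. In unsorted tumours the hosts did not overlap for Cxcr6. For Cxcr3 a WT and a Pfp/Rag2-/- library tied at 4 reads.

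Cxcr4, the Cxcl12 receptor of most leukocytes, was the only member without a read in culture. In GFP- cells its normalized counts were 22766, 21614 and 22434, the highest level per kilobase of any member in any group (12318 ± 328). Pfp/Rag2-/- GFP+ cells held 552, 33.1 and 38.7, and WT GFP+ cells 663, 73.2 and 113. Unsorted tumours held 73.7, 55.3 and 77.5 in Pfp/Rag2-/- hosts and 215, 211 and 233 in WT hosts. Against a floor of 3 reads per cultured library, the mean was at least 99.6-fold higher in WT GFP+ cells and at least 73.2-fold higher in Pfp/Rag2-/- GFP+ cells. Library 1 carried most of both GFP+ means, and without it the bounds were 32.8-fold and 12.6-fold. Floors cover counting error only. In percent of the GFP- mean, Cxcr4 was at 0.987% ± 0.0529 in unsorted WT tumours. There the median marker was at 6.57% ± 0.513 for macrophages and microglia, 3.21% ± 1.41 for T cells and 3.72% ± 0.579 for NK cells. Cxcr4 levels in sorted cells may therefore not be those in the unsorted tumour, and the cause was not tested.

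The GFP- fraction was compared with GFP+ cells of the same host to place each RNA by source cell. With limma, 8 of the 9 genes were called higher in GFP- cells than in WT GFP+ cells, where 42.7% of all genes tested were called higher and 76.4% were called in either direction. The log2 differences were 6.97 (SE 0.76, adjusted p = 0.000282) for Cxcr4, 6.66 (SE 0.66) for Cxcr3, 6.27 (SE 0.45) for Cxcl16 and 6.14 (SE 0.53) for Cxcr6. Cxcl9 followed with 5.50 (SE 0.23), Ccl5 with 5.13 (SE 0.43), Cxcl12 with 3.51 (SE 0.70, adjusted p = 0.00351) and Cxcl11 with 1.55 (SE 0.27, adjusted p = 0.00191). The exception was Cxcl10, at 0.23 (SE 0.44, adjusted p = 0.656), with overlapping ranges. With TMM scaling the Cxcl10 difference was -0.03. That scaling moved the median of all genes from 0.19 to -0.06, so differences are relative to that shift.

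Expressed in percent of the GFP- mean, WT GFP+ cells held 92.1% ± 43.4 for Cxcl10, 33.8% ± 7.20 for Cxcl11 and 2.16% ± 0.339 for Cxcl9. Ccl5 was at 2.90% ± 1.49, Cxcl16 at 1.51% ± 1.05, Cxcr6 at 1.51% ± 1.05, Cxcr4 at 1.27% ± 1.48 and Cxcr3 at 0.882% ± 0.843. The median marker was at 1.59% ± 0.973 for macrophages and microglia (20 markers), 1.24% ± 1.47 for T cells (14 markers) and 1.87% ± 2.74 for NK cells (10 markers). Cxcl10 and Cxcl11 thus lay above the level of all 3 immune marker lists in each WT GFP+ library. Cxcl9 did so in libraries 2 and 3 (1.78% and 2.43%) but not in library 1. There it was at 2.26%, and the immune marker medians were at 2.61%, 2.94% and 5.03%. Other lists stood higher in WT GFP+ library 3. Cxcl11 (25.6%) lay below the median endothelial marker (30.1%) there. Cxcl10 (42.0%) and Cxcl11 both lay below the median of 2 oligodendrocyte markers (83.3%) and below 1 neuron and astrocyte marker (107%). In libraries 1 and 2 both genes lay above these lists. The means of Cxcl16, Ccl5 and the 3 receptors were 0.882% to 2.90% of the GFP- level, and the immune marker medians averaged 1.24% to 1.87%. The part of RNA from other cells in any of these values was not tested.

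**Figure D3:**
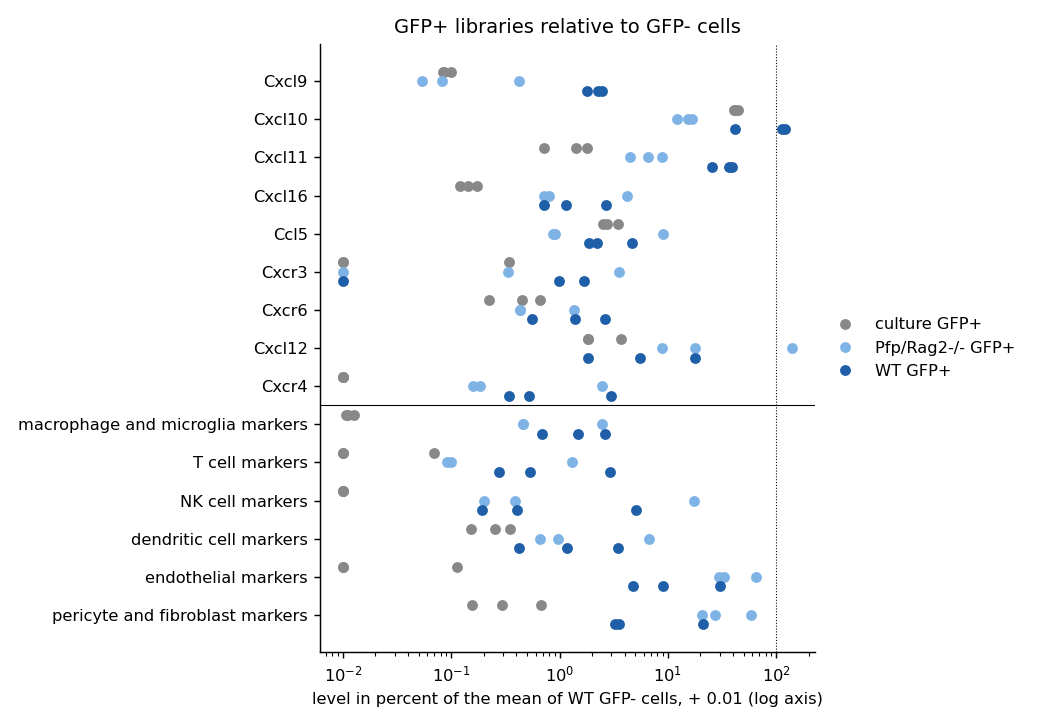
Level of the 9 genes, and the median level of 6 marker lists, in GFP+ libraries of 3 groups, in percent of the mean of the WT GFP- libraries plus 0.01, on a log axis; each point is a library and the dotted line is the GFP- mean. Cxcl10 in WT GFP+ cells lay at 42.0% to 120.0%, whereas the macrophage and microglia markers lay at 0.672% to 2.61%.

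The host comparison in sorted cells asked how GFP+ tumour cells from immune-competent mice differed from those of Pfp/Rag2-/- mice. Cxcl9, Cxcl10 and Cxcl11 were higher in WT hosts, and none of the other tested members was called. That made 3 of 7 tested genes, against 15.3% of all genes called higher and 30.4% called in either direction. The log2 difference was 4.04 for Cxcl9 (SE 0.70, adjusted p = 0.00646), 2.5 for Cxcl10 (SE 0.39, adjusted p = 0.00447) and 2.31 for Cxcl11 (SE 0.31, adjusted p = 0.00253, all limma). The ranges of the hosts did not overlap for any of these, and the ratio of means was 12.2, 6.23 and 5.08. Without Pfp/Rag2-/- library 1 the ratio for Cxcl9 was 37.3, with a log2 difference of 4.90 (adjusted p = 0.000239). Without WT library 3 the Cxcl10 difference was 3.00 (adjusted p = 0.000139) and the ratio 7.92.

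The remaining members were spread widely within a host. Cxcl16 differed by -0.04 (SE 0.76, adjusted p = 0.972), Ccl5 by 0.47 (SE 0.90, adjusted p = 0.722), Cxcr6 by 0.89 (SE 0.65, adjusted p = 0.339) and Cxcr4 by 0.97 (SE 1.23, adjusted p = 0.584), all with overlapping ranges. Without library 1 of both hosts, Ccl5 was called higher in WT hosts at 1.20 (limma adjusted p = 0.0154) and Cxcr4 at 1.32 (adjusted p = 0.0311), which brought the count to 5 of 7. Without Pfp/Rag2-/- library 1 alone, Ccl5 was called at 1.59 (adjusted p = 0.0288). Same-numbered GFP+ libraries of the 2 hosts deviated together, which the fits above did not take into account. With the replicate number as a block in limma, Cxcr4 was called at 0.97 (adjusted p = 0.0314). Cxcr3 and Cxcl12 did not pass the filter on low values, which asks for a normalized count of 10 in 3 libraries.

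In the sorted fraction limma called no macrophage, T cell or NK cell marker between hosts with all libraries. Of macrophage and microglia markers 0 of 20 were called, with a median of 0.77 on the log2 scale, 1 unadjusted p under 0.05, 0 calls with edgeR and 1 with DESeq2 (P2ry12). Without library 1 of both hosts 7 of the 20 were called higher in WT hosts, among them C1qa, Cd68 and Trem2. Of T cell markers 0 of 5 tested were called, with a median of 0.35, 1 unadjusted p under 0.05, 0 calls with edgeR and 1 with DESeq2 (Cd4). Of NK cell markers 0 of 5 tested were called, with a median of 0.93, 0 unadjusted p under 0.05 and 0 calls with edgeR or DESeq2, and 1 (Klrk1) was called higher without library 1 of both hosts. The summed T cell markers ranged from 358 to 1119 in WT GFP+ and from 274 to 867 in Pfp/Rag2-/- GFP+ libraries. Pericyte and fibroblast markers were lower in WT hosts for 6 of 11 tested, with a median of -2.14, and for 4 without library 1 of both hosts. Oligodendrocyte markers were lower for 6 of 10 tested, with a median of -1.09, and for 3 without library 1 of both hosts. Of endothelial markers limma called 0 of 12, with a median of -1.69 and 10 unadjusted p under 0.05, edgeR called 0 and DESeq2 called 2 (Kdr and Egfl7). Summed macrophage markers were 16113, 7149 and 7227 in Pfp/Rag2-/- GFP+ libraries 1, 2 and 3, where Cxcl9 was at 26.5, 2.76 and 4.61. In WT GFP+ libraries 1, 2 and 3 the sums were 17221, 6929 and 14286, and Cxcl9 was at 144, 113 and 155. The part of other cells in the host difference was not tested.

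In unsorted tumours 7 of 8 tested members were higher in WT hosts, where 15.1% of all genes were called higher and 29.9% were called in either direction. Cxcl9 had the widest difference, 6.54 on the log2 scale (SE 0.33, adjusted p = 7.1e-05), with a ratio of means of 111. Cxcl11 differed by 3.14 (SE 0.24), Cxcr6 by 2.89 (SE 0.62, adjusted p = 0.0133), Ccl5 by 2.51 (SE 0.28), Cxcl16 by 2.09 (SE 0.11), Cxcl10 by 1.80 (SE 0.13) and Cxcr4 by 1.67 (SE 0.18, adjusted p = 0.000917). No called gene had overlapping ranges. Cxcl12 differed by 0.05 (SE 0.50, adjusted p = 0.947), with overlapping ranges. The call of Cxcr4 was lost when all 18 libraries entered 1 fit (adjusted p = 0.156).

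Immune markers moved with the host in the unsorted tumours. Of macrophage and microglia markers 19 of 20 were called higher in WT hosts, of T cell markers 11 of 13 tested and of NK cell markers 4 of 8 tested. The summed macrophage markers were 33293 to 47759 in WT and 10910.0 to 12167 in Pfp/Rag2-/- tumours. The median T cell marker stood at 3.21% ± 1.41 of its GFP- mean in WT and 0.196% ± 0.0198 in Pfp/Rag2-/- tumours. Cxcl9 was at 12.04% ± 4.71 and 0.108% ± 0.0206 of its GFP- mean in the same tumours, and Cxcl10 at 43.4% ± 7.97 and 12.4% ± 0.524. The part of cell composition in these differences was not tested.

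**Figure D4:**
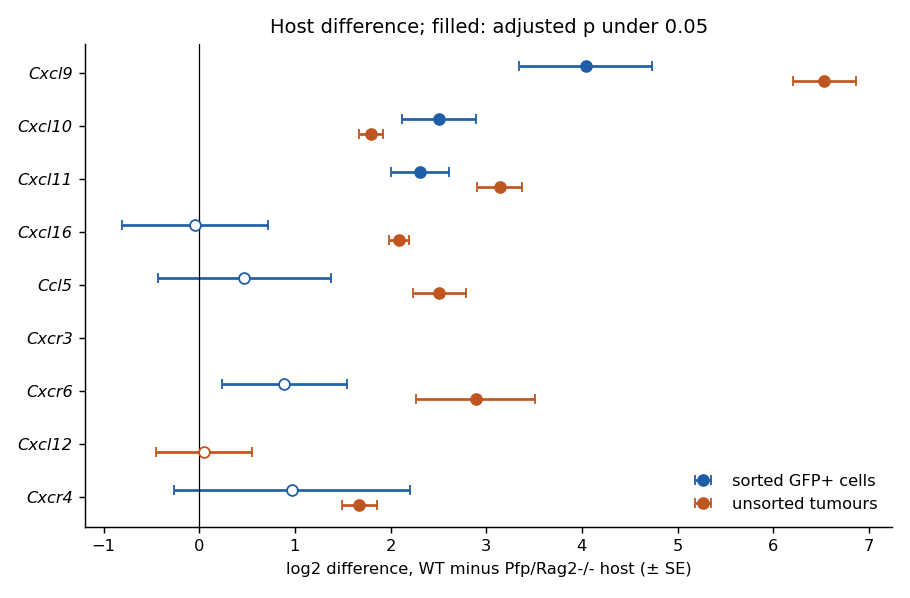
Log2 difference, WT minus Pfp/Rag2-/- host, of each gene in sorted GFP+ cells and in unsorted tumours; points are limma estimates, bars are standard errors, and filled points have an adjusted p under 0.05. Cxcl9, Cxcl10 and Cxcl11 were filled in both materials; Cxcr3 was tested in neither, and Cxcl12 in unsorted tumours alone.

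Whether the host difference itself was larger in unsorted than in sorted material was tested as an interaction over 12 libraries. With limma 0 of the 9 genes were called, beside 0.934% of all genes, and 2 had an unadjusted p under 0.05. These were Cxcl9, with 2.5 (SE 0.84, adjusted p = 0.137), and Cxcl16, with 2.13 (SE 0.85, adjusted p = 0.197). Counts with unadjusted p under 0.05 were 4 with edgeR, which called 0, and 5 with DESeq2, which called Cxcl9 at 3.19 (adjusted p = 0.00324). Cxcl10 went the other way, at -0.71 (adjusted p = 0.410), and was called at -1.20 without WT GFP+ library 3 (adjusted p = 0.0122). The host differences in the 2 materials are therefore not shown to be unlike for any member by limma with all libraries.

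Growth in a host was followed by setting GFP+ tumour cells against the injected culture. Both comparisons share the cultured libraries. Markers of other cells were also higher than in culture. In both hosts 20 of 20 macrophage and microglia markers were called higher, with medians of 6.32 in WT and 5.81 in Pfp/Rag2-/- hosts, and 3 of 3 tested NK cell markers. Of endothelial markers 7 of 9 tested were higher in WT and 11 of 12 in Pfp/Rag2-/- hosts. The part of these cells in the values that follow was not tested. In WT hosts 5 of 6 tested members were called higher, against 30.3% of all genes called higher and 65.6% in either direction. Cxcl9 rose by 4.50 (SE 0.22, adjusted p = 7.84e-07), Cxcl11 by 4.38 (SE 0.33) and Cxcl16 by 3.22 (SE 0.43), and Cxcr4 was called as well. Cxcl10 rose by 0.97 (SE 0.34, limma adjusted p = 0.0341) with overlapping ranges, and this call was lost when any of 5 libraries was left out (adjusted p = 0.0853 to 0.121). These were the 3 cultured libraries and WT GFP+ libraries 1 and 2.

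In Pfp/Rag2-/- hosts 4 of 5 tested members were called, 3 higher and 1 lower, against 35.1% and 37.1% of all genes in those directions and 72.2% in either. Cxcl10 was the lower one and fell by 1.53 on the log2 scale (SE 0.10, adjusted p = 1.59e-06), without overlap. Cxcl11 rose by 2.07 (SE 0.41, adjusted p = 0.00165), Cxcl16 by 3.26 (SE 0.59, adjusted p = 0.000921), and Cxcr4 was called higher. Cxcl9, at 11.3 ± 13.2 against 5.05 ± 0.526 in culture, did not pass the filter. Tumour cells from Pfp/Rag2-/- hosts thus held less Cxcl10 than the cells injected, and those from WT hosts held more by means, 7021 ± 3313 against 3234 ± 120.0.

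Against culture Ccl5 differed by -0.11 in WT hosts (limma adjusted p = 0.775) and by -0.58 in Pfp/Rag2-/- hosts (adjusted p = 0.518). Without library 1 of the host in question it was lower than in culture in both, at -0.50 (adjusted p = 0.0337) and -1.69 (adjusted p = 2.66e-05).

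The interferon-gamma pathway was read from gene lists, which were chosen with earlier results of these data known. Of 18 interferon-gamma target genes 17 were tested in sorted cells, and 17 were higher in WT hosts, with a median log2 difference of 2.12 beside -0.02 for all genes tested. Without library 1 of both hosts the count was again 17. Of all genes tested with all libraries, 15.3% were called higher and 30.4% in either direction. Ciita, the master regulator of antigen presentation by class II, differed by 5.11 and Gbp4, a guanylate-binding protein, by 4.90. Of 12 tested signalling genes 6 were higher, among them Socs1 (2.88), the feedback inhibitor, and Batf2 (3.21). Without library 1 of both hosts 8 signalling genes were higher and 1 was lower. Irf1, the transcription factor that interferon-gamma induces, stood at 11322 ± 3664 in WT GFP+ and 1556 ± 162 in Pfp/Rag2-/- GFP+ cells, a difference of 2.81 (SE 0.24, adjusted p = 0.000498). Of 12 type I interferon target genes 1 was higher (Ifit2, 0.71) and 4 were lower, the lowest being Oas2 (-2.48) and Irf7 (-1.07), and 0 of 10 NF-kB genes were called by limma (0 with an unadjusted p under 0.05, 0 by edgeR and 1, Nfkb2, by DESeq2). Without library 1 of both hosts 1 type I target was higher and 3 were lower, and 1 NF-kB gene (Nfkbie) was called higher.

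Unsorted tumours gave the same count for interferon-gamma targets, 17 of 17 higher with a median of 1.90. Of all genes tested there, 15.1% were called higher and 29.9% in either direction. Of 13 signalling genes 7 were higher. Ifng itself had 23, 47 and 46 reads in unsorted WT tumours and 0, 0 and 0 in unsorted Pfp/Rag2-/- tumours, and was among those called. In GFP- cells it had 1288, 622 and 1150 reads. In GFP+ cells it had 66, 2 and 10 reads in WT hosts and 163, 1 and 4 in Pfp/Rag2-/- hosts, so the reads sat in library 1 of each, and cultured cells had 0. Type I targets were lower for 7 of 12, among them Oas2 (-1.96) and Ifit1 (-1.07), and 4 of 10 NF-kB genes were higher.

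Among 8 tested partners that bind, cut or scavenge these chemokines, 3 were called between hosts in sorted cells, beside 30.4% of all genes in either direction. Ackr3, which scavenges Cxcl12 and binds Cxcl11, was at 640.1 ± 99.4 in WT GFP+, 144 ± 15.4 in Pfp/Rag2-/- GFP+ and 573 ± 18.9 in cultured cells. Its host difference in sorted cells was 2.14 (SE 0.14, limma adjusted p = 0.000204), and GFP- cells differed from WT GFP+ cells by -3.60 (SE 0.50). Mif, a cytokine that also binds Cxcr4, differed by 0.90 between hosts in sorted cells (adjusted p = 0.000642), and Hmgb1, which forms a complex with Cxcl12, by 0.35. The sheddases of Cxcl16 were not called, with Adam10 at -0.21 and Adam17 at 0.09.

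Other T cell-attracting ligands and receptors were not called between hosts in sorted cells. With limma 0 of 6 tested ligands and 0 of 7 tested receptors were called, 1 ligand and 0 receptors had an unadjusted p under 0.05, and edgeR and DESeq2 called 0. Of all genes tested there with all libraries, limma called 15.3% higher in WT hosts and 30.4% in either direction. Without library 1 of both hosts 1 receptor was called higher (Ccr7). In unsorted tumours Ccl2 (2.14), Ccl4 (1.97), Ccl3 (1.78) and Ccl22 (1.49) were higher in WT hosts and Ccl28 (-1.19) was lower, of 8 ligands tested. Of 8 receptors 4 were higher, among them Ccr7 (2.49), Ccr2 (1.67) and Cx3cr1 (1.03). The shares of all genes tested in unsorted tumours were 15.1% higher and 29.9% in either direction. In GFP- cells against WT GFP+ cells 8 of 10 ligands and 12 of 13 receptors were higher, the exceptions among the called being Ccl27a (-1.77) and Ccr10 (-2.40). In that comparison 42.7% of all genes tested were called higher and 76.4% in either direction.

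On chromosome 5 the host difference was read for each gene with any part within 150 kb of the Cxcl10 start. The starts of Uso1 and Scarb2 themselves lay farther away, at 211 and 158 kb. The start of Cxcl9 lay 20.8 kb and that of Cxcl11 16.6 kb from that of Cxcl10. Of the 7 other genes tested, Nup54 was higher in WT hosts in both materials, at 0.48 in sorted (limma adjusted p = 0.00411) and 0.31 in unsorted material (adjusted p = 0.0374). Sdad1 was higher in sorted cells, at 0.32. Art3, which runs on the opposite strand and shares 133 exon bases with Cxcl10, was lower in sorted cells, at -0.70 (adjusted p = 0.0381). Uso1, Ppef2, Naaa and Scarb2 were called in neither material. Differences above 1 on the log2 scale were thus found within this window for the 3 chemokine genes alone among the genes tested.

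**Figure D5:**
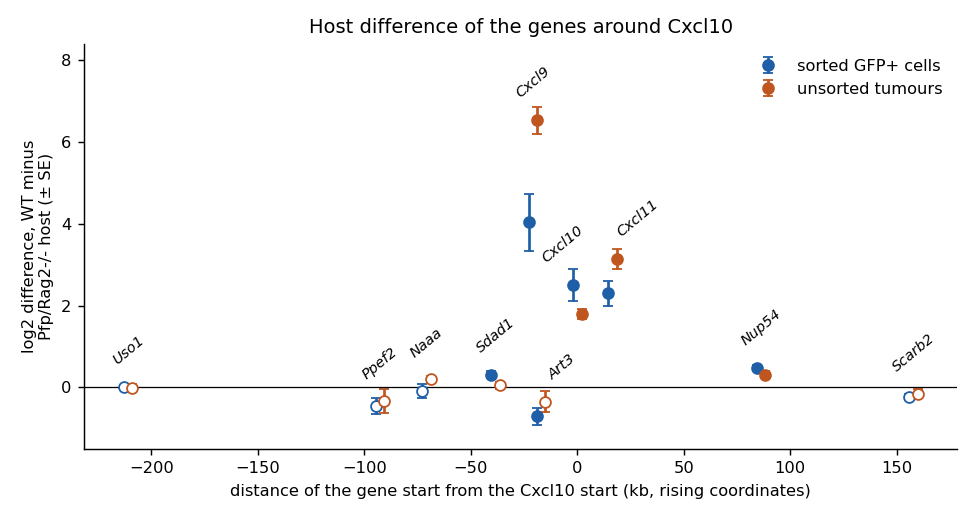
Log2 difference, WT minus Pfp/Rag2-/- host, with its standard error, of the 10 tested genes around Cxcl10, against the distance of each gene start from that of Cxcl10 in kb; sorted and unsorted points are drawn 2 kb to either side for visibility, and filled points have an adjusted p under 0.05. The 3 chemokine genes lay at 1.80 to 6.54 and the other genes between -0.70 and 0.48.

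Genes with the most similar pattern over the 18 libraries were listed for each member among 12415 genes by Pearson's r of log2 levels. This is a description, in which the differences of depth, sorting and host between the libraries enter every r. For Cxcl9 the nearest genes were Ly6e (0.987), Apobec3 (0.984) and H2-DMb1 (0.984). For Cxcl11 they were Il18bp (0.984), Casp1 (0.983) and Sp110 (0.982), and for Cxcl10, with a lower likeness, Itpk1 (0.958), Slc25a25 (0.951) and Pkm (0.948). Cxcl16 was nearest to Nlrp1b, Dok3 and Csf2ra (each 0.995), and Ccl5 to Ly6i (0.976), Irf4 (0.974) and Spn (0.972). Cxcr3 was nearest to Ptprcap (0.983), Sema4a and Pglyrp2 (each 0.982), and Cxcr6 to Ocstamp (0.983), Ubash3a (0.982) and Cd5 (0.980). Cxcl12 had the lowest values, with Cntn2 (0.917), Vtn (0.913) and Ptprm (0.910), and Cxcr4 the highest, with Pmaip1 (0.996), Gm49339 (0.996) and Tent5c (0.994).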

How the data were processed

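The deposited table holds a signal: whole reads of a gene, which the authors divided by 1 size factor for each library to give a normalized count. STAR 2.5.2b, DESeq2 and GRCm38 are named in the submitters' processing notes. Which program counted the reads, and on which annotation, is not given in the sources used here. Of the values 100% in each library were whole reads within 0.05 reads, so read counts were recovered.

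Each comparison used the libraries of its own groups. A gene entered if 3 or more of them had a normalized count of 10 or more. The log2 of the value plus 1 was then tested two-sided in R 4.3.3 with lmFit and trended eBayes of limma 3.58.1, with Benjamini-Hochberg adjustment over all genes. Log2 differences are on that scale, which understates the change of low genes. A gene was called at an adjusted p under 0.05. On recovered reads edgeR 4.0.16 called 4309 genes in the sorted and 4527 in the unsorted host comparison, and DESeq2 1.42.0 called 4522 and 5254. In simulated data with 200 changed genes, limma recovered 97.2% of sorted and 100% of unsorted genes changed by 1 on the log2 scale. The simulation gave all genes the same dispersion, changed only genes above a minimum level and held no deviating library. These recovery rates therefore do not apply to members that were low or spread widely within a host, and a missing call there does not show a missing difference. Gene names, coordinates and exon lengths came from GENCODE M21 on GRCm38, and promoters from RefSeq.

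The members and gene lists were chosen with earlier results of these data known. All members were named, with up to 2 highest and 2 lowest called genes of each list, other list members where useful, and for each member the 3 protein-coding genes of highest Pearson r with a mean of at least 100 in their highest group. Single values of 2 list genes are not reported here. The genes around Cxcl10 were named by position, and single markers called by 1 alternative were named after their values were seen.

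Same-numbered GFP+ libraries of the 2 hosts deviated together from their group means (Pearson's r across genes 0.536, 0.414 and 0.119). These numbers were therefore taken to pair the libraries of the sorted host comparison. Library 1 stood apart in NK cell markers in both hosts, so these correlations cannot tell pairing from a deviation shared by the libraries numbered 1. The main results nevertheless come from fits without that pairing, and the replicate block was run as an alternative only. Alternatives were a pseudocount of 10, no filter, TMM, edgeR, DESeq2, all 18 libraries in 1 fit, a replicate block, leaving out each library, and leaving out both GFP+ libraries numbered 1.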

Additional observations from a re-analysis of the deposited data

How the results depend on the processing

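Cxcl9, Cxcl10 and Cxcl11 were called higher in WT hosts in sorted and in unsorted material under every alternative run. Over 635 values of a member under an alternative, 20 changed direction, 6 lost a call and 8 gained one, and every change of direction was of a value that had not been called. The cause was not tested. In the sorted host comparison the count of called members was 5 without both GFP+ libraries numbered 1 and 3 to 4 with single libraries left out. Ccl5 was -0.30 with edgeR, and -0.10 to 1.59 with single libraries left out, and Cxcl16 was 0.25 without both libraries numbered 1 and -0.57 to 0.78 with single libraries left out. Genes called in all were 2971 with all 18 libraries in 1 fit and 2340 without both libraries numbered 1, against 4497, and 2522 to 5532 with single libraries left out. In the unsorted host comparison Cxcl12 ranged from -0.37 to 0.45, the count of members was 7 with each library left out, and genes called ranged from 2280.0 to 6142 against 4620.0. For the difference of host effects DESeq2 called 1 member and 1216 genes against 0 and 151, and leaving out single libraries gave 0 to 1 members and 0 to 1105 genes. Genes called there were 61 without a filter, 70 with edgeR, 34 with all 18 libraries in 1 fit and 0 without both GFP+ libraries numbered 1. Cxcr4 ranged from -0.60 to 1.65 with single libraries left out. For source cell, Cxcl10 was -0.027 with TMM, -0.015 with DESeq2, and -0.27 to 0.49 with single libraries left out, and the count stayed at 8. Against culture, Ccl5 in WT GFP+ cells was 0.051 with edgeR and 0.055 with DESeq2 and ranged from -0.50 to 0.15, and in Pfp/Rag2-/- GFP+ cells it was 0.36 with edgeR. Counts ranged from 4 to 5 in both growth comparisons, and DESeq2 gave no adjusted p for Cxcr4 in Pfp/Rag2-/- hosts.

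With the replicate number as a block the counts of called members were 4 sorted, 7 unsorted, 0 for the difference, 8 for source cell, 5 for WT growth and 4 for Pfp/Rag2-/- growth, and Cxcr4 in the sorted host comparison was the single call that changed. Outside that comparison the numbers were not taken to pair the libraries (Pearson's r -0.17, 0.07 and -0.28 for unsorted tumours, and 0.17, 0.097 and 0.31 for WT GFP- and WT GFP+ cells, whose second pair missed the required 0.1). Of 6 libraries 4 correlated best with their own number in the source cell comparison, 0 in unsorted tumours, and 0 and 2 in WT and Pfp/Rag2-/- growth. With the block 12242 genes were called for source cell against 12283. Members with few reads, Cxcr3 and Cxcl12 above all, are limited by depth outside the GFP- fraction.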
